A study of Mus musculus with 3 samples.

Results

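The genes described here are 10 members of the Notch pathway in the embryonic mouse testis: the 4 receptors Notch1, Notch2, Notch3 and Notch4, the ligands Jag1 and Jag2, and the target genes Hes1, Hey1, Hey2 and Heyl. They were chosen by name, and their probes were found through the RefSeq accession that the array files give for each probe. The 10 genes stand among 16531 genes named in this way and have 12 of the 23366 named probes, 2 each for Jag1 and Heyl and 1 for each other member. All 12 probes were well above background on 6 of 6 arrays, so all 10 members passed the background filter that kept 13412 genes.

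RNA was measured in gonads of male Cyp26b1-/- mouse embryos of the MCH line on E12.5, on E13.5 and on E14.5 (embryonic days 12.5, 13.5 and 14.5), with 2 arrays per stage. Cyp26b1 encodes a cytochrome P450 enzyme that breaks down retinoic acid, and all 3 groups are labelled as lacking it. A control genotype was not analysed here, so every comparison is between stages of gonads labelled knockout. The series text calls the arrays of a stage biological duplicates, and the number of embryos behind each array is not given in the sources used here.

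Notch receptors are bound by ligands of the Jagged and Delta-like families on a neighbouring cell. Binding leads to cleavage of the receptor, and its intracellular part enters the nucleus, where it joins the DNA-binding protein RBPJ and switches on genes of the Hes and Hey families, which encode transcriptional repressors. In the fetal mouse testis the pathway is known for keeping interstitial progenitors of Leydig cells undifferentiated, and in blood vessels generally for arterial identity and for the mural cells around the endothelium.

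RefSeq's table of mouse promoters (GRCm38.p6) matched 7 of the 10 members; Hes1, Hey1 and Heyl were not matched. The 250 bases before each start were searched on both strands for the core of the RBPJ site, TGGGAA, and for a form of the E-box spelled CACGTG. Matches of these motifs do not overlap in these windows. The RBPJ core was found in 1 of the 7 windows, that of Hey2, and in 21.6% of all 32851 promoter windows of that length; CACGTG was found in 0 of the 7 and in 6.02% of all windows. The Hey2 window is shown because it holds the core, and because Hey2 did not pass the test in any stage comparison below. It lies at chr10:30842784-30843033 on the minus strand and is written 5′ to 3′, with the core, 207 to 202 bases before the start, in capitals; the second stretch is 24 bases across the start itself, with another copy of the core that has 3 bases before the start and 3 after it. A match is a string of letters and does not show binding.
Hey2 promoter: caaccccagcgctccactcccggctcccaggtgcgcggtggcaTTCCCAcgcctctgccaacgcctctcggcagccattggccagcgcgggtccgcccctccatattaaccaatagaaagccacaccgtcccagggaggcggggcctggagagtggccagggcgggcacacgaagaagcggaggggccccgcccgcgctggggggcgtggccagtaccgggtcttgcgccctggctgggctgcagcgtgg
Hey2 start: gctgcagcgTGGGAAagaacctcc

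The windows of Notch3, Notch4 and Jag1 are shown next because these genes moved in different directions. Both receptor genes lie on chromosome 17, Notch3 on the minus strand (window chr17:32166891-32167140) and Notch4 on the plus strand (window chr17:34564045-34564294), and the Jag1 window is chr2:137116521-137116770 on the minus strand. Capitals mark CpG dinucleotides, counted after the expression values were known. The Notch4 window holds 4 CpG, below the median of 6 over all windows, while that of Notch3 holds 17 and that of Jag1 holds 20. Notch1, Notch2, Jag2 and Hey2 had 16, 34, 54 and 22, so Notch4 had the fewest of the 7. As few CpG as in the Notch4 window were held by 44.4% of all windows. Hey1, the other member called lower below, had no window, and a link between CpG and direction was not tested.
Notch3 promoter: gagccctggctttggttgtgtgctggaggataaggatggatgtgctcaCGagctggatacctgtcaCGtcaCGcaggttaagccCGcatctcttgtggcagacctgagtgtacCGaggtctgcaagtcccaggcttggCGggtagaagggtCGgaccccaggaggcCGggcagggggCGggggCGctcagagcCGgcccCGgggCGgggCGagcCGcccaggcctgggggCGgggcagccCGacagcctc
Notch4 promoter: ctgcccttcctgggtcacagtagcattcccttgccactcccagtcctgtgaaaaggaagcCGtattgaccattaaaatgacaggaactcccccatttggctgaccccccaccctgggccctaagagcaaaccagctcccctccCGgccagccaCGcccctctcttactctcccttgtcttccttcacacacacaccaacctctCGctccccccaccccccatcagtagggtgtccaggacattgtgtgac
Jag1 promoter: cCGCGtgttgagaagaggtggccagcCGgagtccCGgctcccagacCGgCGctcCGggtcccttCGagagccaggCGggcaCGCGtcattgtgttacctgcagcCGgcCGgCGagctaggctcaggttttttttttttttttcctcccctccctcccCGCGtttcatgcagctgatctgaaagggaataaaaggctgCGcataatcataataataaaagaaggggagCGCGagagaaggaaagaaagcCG

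Some facts of the arrays bear on all results. One slide held both arrays of E12.5 and a second slide held the other 4, so stage and slide cannot be told apart in any comparison with E12.5, and only E14.5 against E13.5 is within a slide. Between 65.3% and 70.1% of probes were well above background on an array, no spot was saturated, and the duplicates correlated at 0.993 to 0.996 across genes. The log2 difference between duplicates had an SD of 0.362 for the E12.5 pair, 0.295 for the E13.5 pair and 0.332 for the E14.5 pair. The single probe of Cyp26b1, the deleted gene, was bright throughout, at 4.96 and 4.73 for E12.5, 4.29 and 4.20 for E13.5, and 4.27 and 3.83 for E14.5, in log2 units over the array's 75th percentile. These levels do not show the loss that the labels state. Where the probe lies relative to the deletion is not known here, so it does not check the genotype, which rests on the labels alone. Its change for E14.5 against E12.5 was -0.80 (adjusted p = 0.0135), and it did not pass when the first array of E12.5 (-0.68, 0.0665) or the second of E14.5 (-0.58, 0.0534) was left out. The arrays hold whole gonads, in which fewer cells of a type and less RNA per cell cannot be told apart.

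Levels below are log2 signals relative to the array's 75th percentile, so that 0 is a probe as bright as that percentile, and a level cannot be set against that of another probe. Changes are the later stage minus the earlier one in log2 units, from a limma fit to all genes, with a Benjamini-Hochberg adjusted p under 0.05 as the threshold. Against E12.5, 4 members were higher and 2 lower at E13.5, and 4 were higher and 2 lower at E14.5. Notch3, Jag1, Jag2 and Heyl were higher and Notch4 and Hey1 lower in both comparisons, while Notch1, Notch2, Hes1 and Hey2 did not pass in either. Over all genes kept, 32.1% passed for E13.5 against E12.5 (18.1% higher, 14% lower) and 46.8% for E14.5 against E12.5 (25.6% higher, 21.2% lower), so calls were common on these arrays. When either E13.5 array was left out, 2 members, Jag1 and Heyl, passed for E13.5 against E12.5. None of the 10 passed for E14.5 against E13.5, where 0.0522% of all genes did (0.0447% higher, 0.00746% lower), and none had an unadjusted p under 0.05 there, as 18.5% of all genes did. Against E12.5, 7 members had an unadjusted p under 0.05 at each later stage, beside 45.5% of all genes at E13.5 and 55.4% at E14.5. Stages that do not overlap were also common, in 72% of all genes for E13.5 against E12.5 and 75.6% for E14.5 against E12.5. The median change of the 10 was 0.10 for E13.5 against E12.5 and 0.12 for E14.5 against E12.5, close to the medians over all genes of 0.04 and 0.03.

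**Figure D1:**
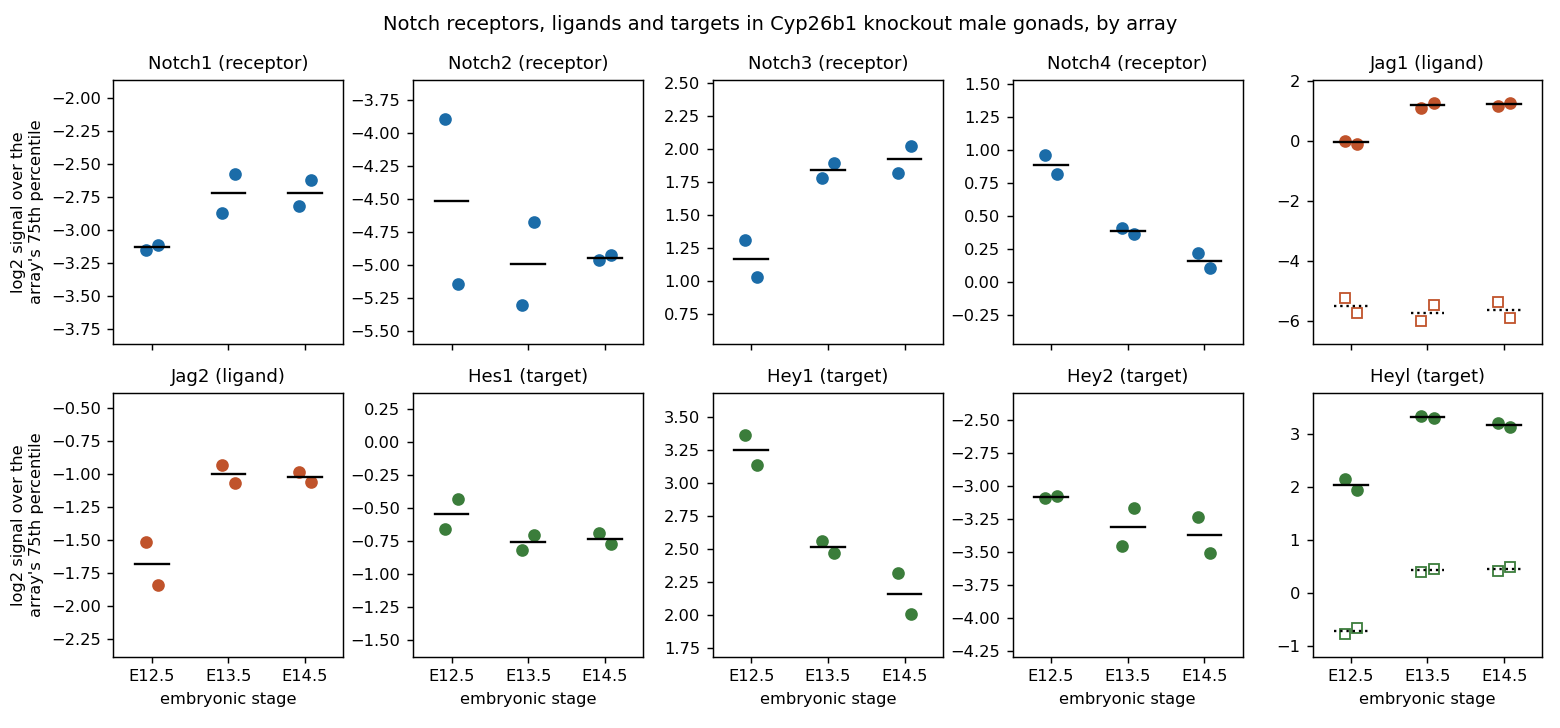
Log2 signal over the array's 75th percentile (vertical axis, all panels except Jag1 and Heyl spanning the same range) by embryonic stage for the 10 genes, with filled points for the probe that stands for the gene, open squares for the other probe of Jag1 and Heyl, and lines for the mean of 2 arrays. Notch3, Jag1, Jag2 and Heyl lie higher on every later array than at E12.5, Notch4 and Hey1 lower, and the dim second probe of Jag1 does not separate the stages.

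Notch3, a receptor best known from vascular mural cells, was higher at both later stages. Its levels were 1.31 and 1.03 on the E12.5 arrays, 1.78 and 1.90 on the E13.5 arrays, and 1.82 and 2.02 on the E14.5 arrays. Every later array lay above both E12.5 arrays, and the E13.5 and E14.5 arrays overlapped. The change was 0.67 ± 0.14 (SE, adjusted p = 0.0191) for E13.5 against E12.5, or 1.59-fold, and 0.75 ± 0.14 (adjusted p = 0.00853) for E14.5 against E12.5, or 1.69-fold. Leaving out the second E12.5 array (adjusted p = 0.0723) or either E13.5 array (0.0633 and 0.112) ended the call at E13.5, and the call at E14.5 held under every alternative tried except the 2-fold minimum.

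Notch4, a receptor found mainly in endothelial cells, moved the other way. It had levels of 0.96 and 0.82 on the E12.5 arrays, 0.40 and 0.36 on the E13.5 arrays, and 0.22 and 0.10 on the E14.5 arrays. No stage overlapped another, and E12.5 was the highest. Notch4 was 1.42-fold lower at E13.5 than at E12.5 (log2 change -0.51 ± 0.11, adjusted p = 0.0208) and 1.66-fold lower at E14.5 than at E12.5 (-0.73 ± 0.11, adjusted p = 0.00438). The change for E14.5 against E13.5 was -0.22, with a 95% confidence interval from -0.49 to 0.05, which did not pass (adjusted p = 0.342). Leaving out the first E12.5 array (0.078) or either E13.5 array (0.0827 and 0.12) ended the call at E13.5.

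Notch1, the most widely studied receptor of the family, sat just short of the threshold. It had levels of -3.15 and -3.12 on the E12.5 arrays, -2.87 and -2.58 on the E13.5 arrays, and -2.82 and -2.62 on the E14.5 arrays. All 4 later arrays lay above both E12.5 arrays, and the later stages overlapped. Against E12.5, the E13.5 arrays differed by 0.41 ± 0.14 (adjusted p = 0.0716) and the E14.5 arrays by 0.42 ± 0.14 (0.0541). With normexp background correction both passed, at 0.57 (adjusted p = 0.00936) and 0.54 (0.0079), and the adjusted p of the second ran up to 0.218 over the alternatives.

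Notch2, the fourth receptor, had the widest spread of the members. Its levels were -3.90 and -5.15 on the E12.5 arrays, -5.30 and -4.68 on the E13.5 arrays, and -4.97 and -4.93 on the E14.5 arrays. The stages overlapped throughout, and the E12.5 duplicates alone lay 1.25 apart. The change for E14.5 against E12.5 was -0.42 with an interval from -1.44 to 0.59, so a difference of the measured size, 1.34-fold lower, was not detectable on these arrays. The value was -1.05 (adjusted p = 0.0499) with the second E12.5 array left out, and 0.20 with the first left out.

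Jag1, a ligand that developing vessels and many epithelia use, had the largest change among the receptors and ligands. On its brighter probe the levels were 0.02 and -0.08 on the E12.5 arrays, 1.11 and 1.29 on the E13.5 arrays, and 1.20 and 1.29 on the E14.5 arrays. The 4 later arrays lay close together and more than 1 log2 unit above both E12.5 arrays. The change was 1.23 ± 0.12 (adjusted p = 0.00292) for E13.5 against E12.5, or 2.35-fold with an interval from 1.93 to 2.86, and 1.27 ± 0.12 (adjusted p = 0.00106) for E14.5 against E12.5, or 2.42-fold. Only 4.03% of genes had a larger positive change at E13.5.

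The second Jag1 probe did not show this change. It had levels of -5.22 and -5.74 on the E12.5 arrays, -5.99 and -5.45 on the E13.5 arrays, and -5.36 and -5.90 on the E14.5 arrays, close to the dimmest signals called above background, which were -6.94 to -6.17. Its changes were -0.24 ± 0.29 for E13.5 against E12.5 and -0.15 ± 0.29 for E14.5 against E12.5, with adjusted p over all probes of 0.571 and 0.708. With the mean of both probes Jag1 had a change of 0.50 at E13.5, which did not pass (adjusted p = 0.0832), and of 0.56 at E14.5, which did (0.0472). The rise of Jag1 therefore rests on the brighter probe.

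Jag2, the other Jagged ligand, was higher at both later stages. It had levels of -1.52 and -1.84 on the E12.5 arrays, -0.93 and -1.07 on the E13.5 arrays, and -0.98 and -1.06 on the E14.5 arrays. The later stages overlapped each other and lay above both E12.5 arrays. The change was 0.68 ± 0.14 (adjusted p = 0.0186, 1.6-fold) for E13.5 against E12.5 and 0.66 ± 0.14 (adjusted p = 0.0134, 1.58-fold) for E14.5 against E12.5. Both calls depended on single arrays. The first was lost without the second E12.5 array (0.0617) or either E13.5 array (0.0895 and 0.0756), and the second without the second E12.5 array or either E14.5 array (0.051 to 0.0588).

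Among the target genes, Heyl and Hey1 moved in opposite directions. Heyl, a repressor known from vascular smooth muscle, had levels of 2.15 and 1.94 on the E12.5 arrays, 3.34 and 3.30 on the E13.5 arrays, and 3.20 and 3.13 on the E14.5 arrays on its brighter probe. On the other probe they were -0.76 and -0.65 on the E12.5 arrays, 0.40 and 0.47 on the E13.5 arrays, and 0.42 and 0.49 on the E14.5 arrays. On both probes every later array lay above both E12.5 arrays. The brighter probe gave a change of 1.28 ± 0.12 (adjusted p = 0.0029, 2.42-fold with an interval from 1.99 to 2.95) for E13.5 against E12.5 and 1.12 ± 0.12 (adjusted p = 0.00149, 2.17-fold) for E14.5 against E12.5. The other probe gave 1.14 and 1.16. Of all genes, 3.74% had a larger positive change than Heyl at E13.5, and both calls held under every alternative tried.

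Hey1, a repressor expressed in arterial endothelium among other cells, had levels of 3.36 and 3.14 on the E12.5 arrays, 2.56 and 2.47 on the E13.5 arrays, and 2.32 and 2.0 on the E14.5 arrays. The 3 stages did not overlap, and E14.5 was the lowest. Hey1 was 1.67-fold lower at E13.5 than at E12.5 (-0.74 ± 0.15, adjusted p = 0.0173) and 2.13-fold lower at E14.5 than at E12.5 (-1.09 ± 0.15, adjusted p = 0.00325), a change more negative than that of all but 4.3% of genes. The call at E13.5 ended when the first E12.5 array (0.0747) or either E13.5 array (0.0619 and 0.102) was left out. Between the later stages, E14.5 minus E13.5 gave -0.35, with an interval from -0.72 to 0.01 and an unadjusted p of 0.0563 (adjusted p = 0.279).

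Hes1, the pathway's most general target, stayed within a narrow range. It had levels of -0.66 and -0.44 on the E12.5 arrays, -0.82 and -0.70 on the E13.5 arrays, and -0.69 and -0.77 on the E14.5 arrays. The later arrays all lay below both E12.5 arrays, by less than 1 log2 unit. The change was -0.21 ± 0.12 (adjusted p = 0.223) for E13.5 against E12.5 and -0.19 ± 0.12 (adjusted p = 0.253) for E14.5 against E12.5, and the interval of the second ran from -0.49 to 0.11. Hey2, a repressor of the developing heart and arteries, likewise did not pass. Its levels were -3.09 and -3.08 on the E12.5 arrays, -3.46 and -3.17 on the E13.5 arrays, and -3.23 and -3.51 on the E14.5 arrays. The change for E14.5 against E12.5 was -0.29 with an interval from -0.66 to 0.08 (adjusted p = 0.163), and it passed under quantile normalization, at -0.45 (adjusted p = 0.0426).

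Between E13.5 and E14.5, within 1 slide, the members differed little. For E14.5 against E13.5 the changes were 0.01 for Notch1, 0.05 for Notch2, 0.08 for Notch3, 0.04 for Jag1, -0.02 for Jag2, 0.03 for Hes1 and -0.06 for Hey2, with overlapping arrays in each case. Notch4, Hey1 and Heyl had arrays that did not overlap, as did 55.7% of all genes, and the interval of Heyl ran from -0.44 to 0.13 around -0.16. The intervals of Jag1 (-0.24 to 0.33) and Jag2 (-0.37 to 0.33) leave out changes as large as those measured against E12.5. These intervals bound the second step; a p that misses the threshold does not show equal levels.

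**Figure D2:**
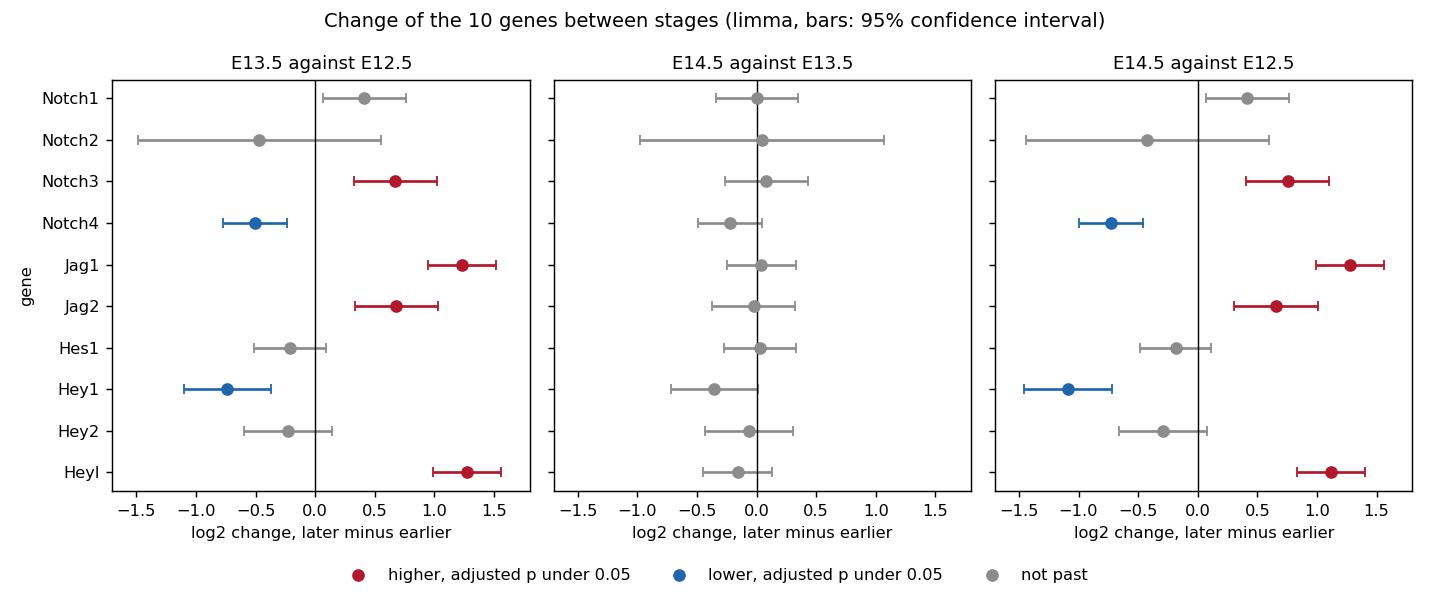
Log2 change of the 10 genes (horizontal axis, later minus earlier stage) for the 3 comparisons, as points with 95% confidence intervals from limma, coloured by whether the adjusted p was under 0.05. The 6 coloured genes lie to the same side of 0 for E13.5 and for E14.5 against E12.5, 2 comparisons that share the E12.5 arrays, and the middle panel has no coloured point.

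The other genes of the pathway were taken from a list of 60, of which 51 had a probe and 49 passed the background filter. Against E12.5, 11 were higher, 5 lower and 33 did not pass at E13.5, while 14 were higher, 10 lower and 25 did not pass at E14.5, with medians of 0.06 and 0.07. In the step within a slide, E14.5 against E13.5, 0 of 49 passed in limma, and 7 had an unadjusted p under 0.05. The share called was thus 16 of 49 at E13.5 and 24 of 49 at E14.5, beside the 32.1% and 46.8% of all genes given above. The 16 at E13.5 became 10 without the first E12.5 array, 10 without the first E13.5 array and 6 without the second E13.5 array.

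The Delta-like ligands split. Dll1, which signals in many embryonic tissues, had levels of -1.73 and -1.66 on the E12.5 arrays, -1.04 and -0.99 on the E13.5 arrays, and -0.98 and -0.98 on the E14.5 arrays, and was 1.64-fold higher at E14.5 than at E12.5 (0.72 ± 0.10, adjusted p = 0.00337). Dll4, the ligand of arterial and sprouting endothelium, had levels of -1.59 and -1.64 on the E12.5 arrays, -2.52 and -2.35 on the E13.5 arrays, and -2.28 and -2.32 on the E14.5 arrays. Against E12.5, the E13.5 level was 1.76-fold lower (-0.82 ± 0.11, adjusted p = 0.00546) and the E14.5 level 1.61-fold lower (-0.68 ± 0.11, adjusted p = 0.00504). All later arrays lay above E12.5 for Dll1 and below it for Dll4. Dll3 did not pass (0.19 for E14.5 against E12.5). Dlk1, a Delta-like protein without the domain that activates the receptor, was 1.57-fold higher at E14.5 than at E12.5 (adjusted p = 0.0242), a call lost under median scaling (0.0637) and when the first E12.5 array (0.0573) or either E14.5 array (0.0747 and 0.0978) was left out.

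Of the Fringe enzymes, which add sugars to the receptors and so change which ligands they answer to, Rfng was 2.31-fold higher at E14.5 than at E12.5 (1.21 ± 0.18, adjusted p = 0.00402). Lfng had 0.73 (adjusted p = 0.0626, and 0.0117 to 0.214 over the alternatives, 7 of 16 of which passed) and Mfng -0.15 (0.457). Aph1a, a subunit of the gamma-secretase that cuts the receptor, was 2.72-fold higher at E14.5 than at E12.5 (1.44 ± 0.26, adjusted p = 0.00724), with 1.39 on its other probe. Among the other measured subunits, Aph1b was lower in limma (-0.85, adjusted p = 0.0104). Psen2, Ncstn and Psenen did not pass, at -0.24, -0.01 and -0.06. Adam17, a protease on the list, was higher at E13.5 than at E12.5 in limma (0.46, adjusted p = 0.0384). At E14.5 against E12.5 it did not pass (0.35, adjusted p = 0.0636). Adam10, a protease that makes the cut before that of gamma-secretase, was 2.02-fold lower at E14.5 than at E12.5 (adjusted p = 0.0362). That call was lost under 6 of 16 alternatives, where leaving out the first E12.5 array gave -0.67 (0.151) and leaving out the second of E14.5 gave -0.69 (0.16).

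In the nucleus, Rbpj itself had levels of 0.28 and 0.30 on the E12.5 arrays, 0.40 and 0.59 on the E13.5 arrays, and 0.82 and 0.68 on the E14.5 arrays. It was 1.37-fold higher at E14.5 than at E12.5 (0.45 ± 0.12, adjusted p = 0.0247), a call lost under median scaling (0.122) and without any 1 of the E12.5 and E14.5 arrays (0.057 to 0.104). The coactivator Ep300, a histone acetyltransferase, was 3-fold lower at E14.5 than at E12.5 (-1.59 ± 0.18, adjusted p = 0.00191), with -0.81 on its other probe. The corepressors Hdac2, a histone deacetylase, and Ctbp2 were 2.97-fold and 1.89-fold lower in the same comparison (adjusted p = 0.000783 and 0.00209). Both a coactivator and corepressors of the pathway were thus lower at the later stage, and all of these proteins also act outside the pathway.

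Among other Hes genes and regulators, Hes6, which opposes Hes1 in neural cells, was 2.08-fold higher at E14.5 than at E12.5 (1.06 ± 0.11, adjusted p = 0.00159), with 0.97 on its other probe. Hes5, a target gene best known from neural progenitors, was 1.42-fold lower (-0.50 ± 0.15, adjusted p = 0.0357), a call lost with no background filter (0.0665) and on leaving out the first E12.5 array (0.137), the second E13.5 array (0.0517) or either E14.5 array (0.0845 and 0.139). Nrarp, a target that feeds back on the receptor's intracellular part, did not pass (0.14 for E14.5 against E12.5). Dtx1, a Deltex ubiquitin ligase that binds the receptor, had the largest change of the list. It had levels of -0.04 and -0.16 on the E12.5 arrays, 1.81 and 2.08 on the E13.5 arrays, and 2.47 and 2.80 on the E14.5 arrays. The stages did not overlap, and the change was 2.73 ± 0.16, or 6.64-fold, for E14.5 against E12.5 (adjusted p = 0.000497). For E14.5 against E13.5, within a slide, Dtx1 had 0.69 ± 0.16 (adjusted p = 0.122), which passed with normexp (0.70, adjusted p = 0.0412) and with a trended robust prior (0.69, 0.0397). Dtx3, a related ligase, was 2.17-fold higher at E14.5 than at E12.5 (adjusted p = 0.00403), and Fbxw7, which marks the intracellular part for degradation, was 2.08-fold higher (0.00157).

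**Figure D3:**
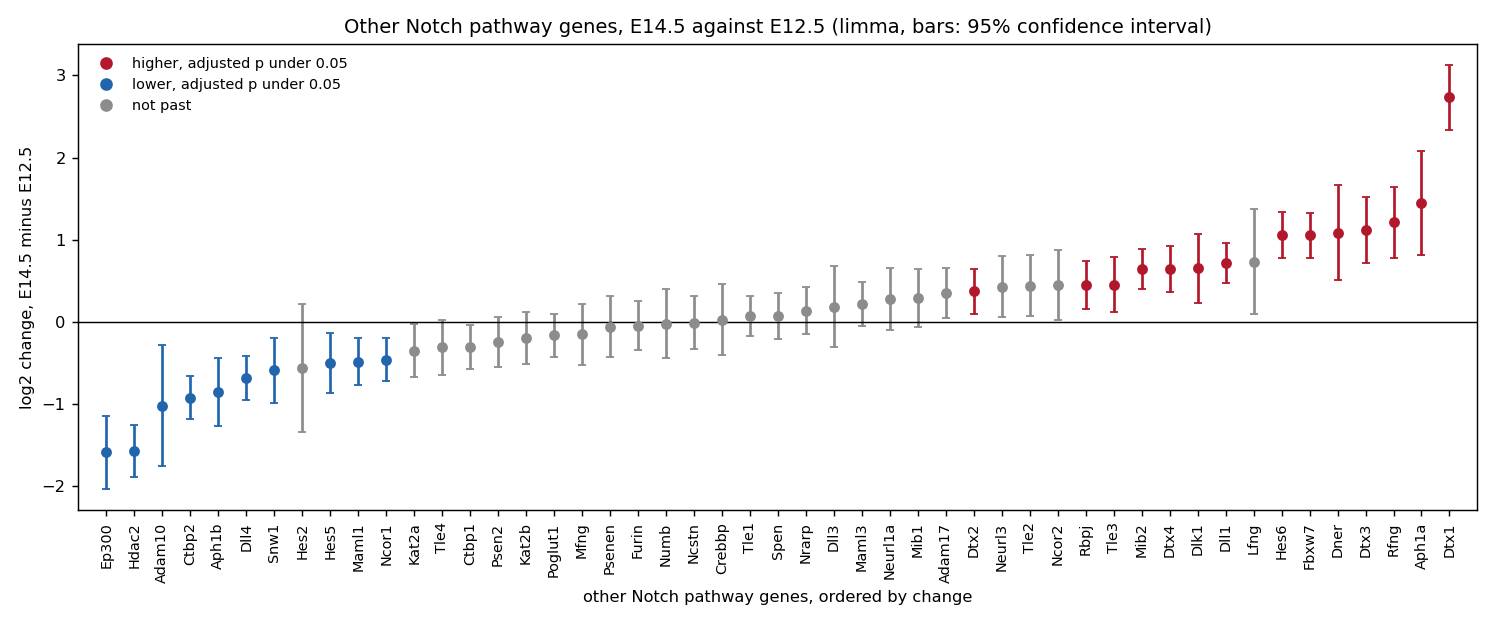
Log2 change for E14.5 against E12.5 (vertical axis) of the 49 other pathway genes that passed the background filter, ordered by change, with 95% confidence intervals from limma and colours for an adjusted p under 0.05. The 14 genes called higher end with Dtx1 at 2.73, and the 10 called lower start with Ep300 at -1.59.

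Since Notch genes differ between the cells of vessels, marker lists of those cells were set beside them. All 12 endothelial markers were well above background on every array. Of the 12, 1 was higher (Eng) and 4 lower (Kdr, Flt1, Esam and Cldn5) at E13.5 against E12.5, with the median at -0.15, and 1 was higher and 4 lower at E14.5 against E12.5, with the median at -0.16. The counts of this list and of those below stand beside 32.1% of all genes called at E13.5 and 46.8% at E14.5, against E12.5. Kdr, the main receptor for VEGF, had -0.98 at E13.5 and -0.86 at E14.5, both against E12.5. The brightest markers, Ramp2 and Robo4, had -0.04 and 0.29 for E14.5 against E12.5 and did not pass. The summed level of the list, in multiples of the 75th percentile signal, was 43.9 and 43 on the E12.5 arrays, 38.7 and 39.8 on the E13.5 arrays, and 41.2 and 39.2 on the E14.5 arrays. Notch4, Hey1 and Dll4 fell beside these values, and the part of endothelial RNA in their changes was not tested.

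The list of pericyte and smooth muscle markers was higher at the later stages. Of its 11 genes, all above background, 6 were higher and 0 lower at E13.5 and 10 higher and 0 lower at E14.5, both against E12.5, with medians of 0.55 and 1.18. The summed level was 22.6 and 26.1 on the E12.5 arrays, 44.6 and 52.6 on the E13.5 arrays, and 64 and 73.7 on the E14.5 arrays. No stage overlapped another. Acta2, smooth muscle actin, was the brightest of the list and weighed most in the sum. It had 2.18 on its brightest probe for E14.5 against E12.5, and 0.19 and 1.83 on its others. The probe with 0.19 was also bright, at 3.27 and 3.67 on the E12.5 arrays. Pdgfrb, a receptor of mural and stromal cells, had 0.45 in the same comparison. Notch3, Jag1 and Heyl rose beside this list, as they did beside the fetal Leydig and germ cell lists given below. The part of mural cell RNA in their changes was not tested. The list had for E14.5 against E13.5 a median of 0.33, while Notch3, Jag1 and Heyl had 0.08, 0.04 and -0.16, and 0 of the 11 passed.

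**Figure D4:**
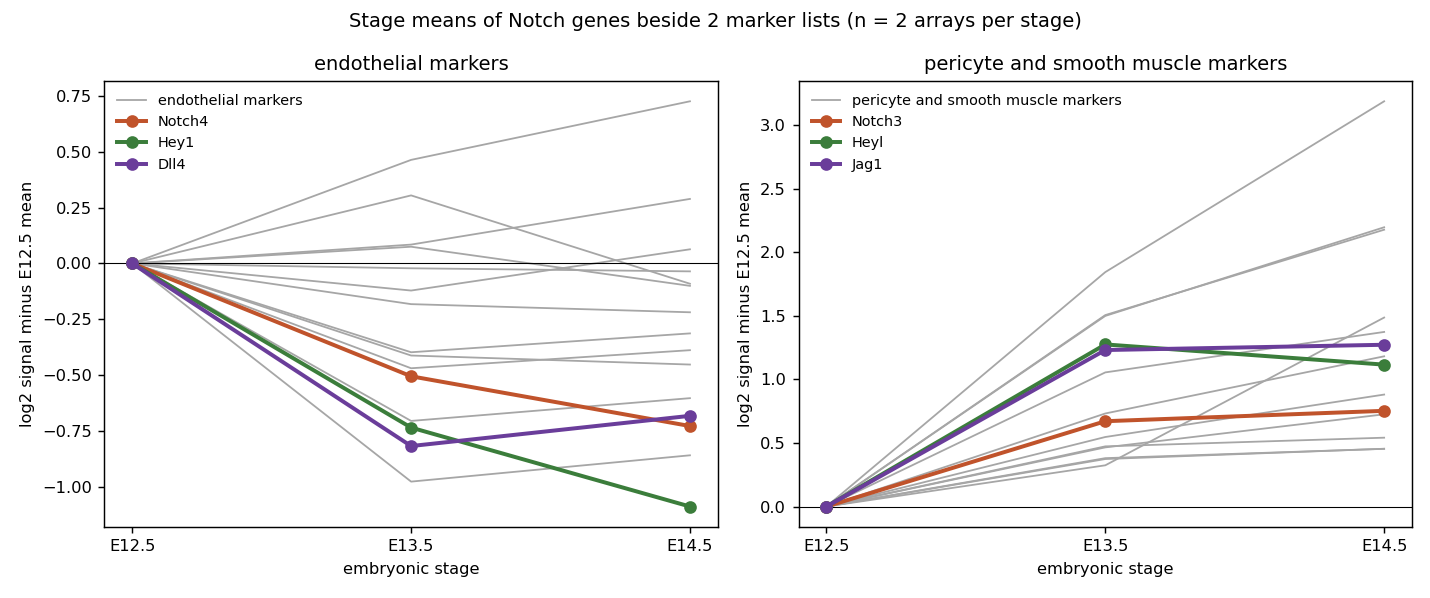
Stage means of log2 signal minus the E12.5 mean (vertical axis, n = 2 arrays per stage) by embryonic stage, for the 12 endothelial markers with Notch4, Hey1 and Dll4 (left) and for the 11 pericyte and smooth muscle markers with Notch3, Heyl and Jag1 (right). At E14.5 the Hey1 line ends at -1.09, below every endothelial marker, and the lines of Notch3, Heyl and Jag1 stay near their E13.5 values. The genes drawn beside each list were picked with their changes known. Members not drawn, Notch1, Notch2, Jag2, Hes1 and Hey2, had 0.42, -0.42, 0.66, -0.19 and -0.29 for E14.5 against E12.5.

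Markers of other gonadal cells were counted in the same way. The 7 measured fetal Leydig markers were all higher at E13.5 and at E14.5 than at E12.5, with a summed level of 3.55 and 6.06 on the E12.5 arrays, 43.7 and 49.3 on the E13.5 arrays, and 81.8 and 107 on the E14.5 arrays. Of 8 interstitial progenitor markers, 2 were higher and 2 lower at E13.5 and 2 higher and 0 lower at E14.5, against E12.5. For E14.5 against E12.5, the counts higher and lower were 1 and 3 of 8 Sertoli markers, 5 and 0 of 8 germ cell markers, 1 and 3 of 6 mesonephros markers, 4 and 0 of 6 macrophage markers, and 1 and 4 of 7 erythroid markers. Over all genes, 25.6% were higher and 21.2% lower in that comparison, 46.8% together. The summed mesonephros level, 1.06 and 1.43 on the E12.5 arrays, was 0.813 and 0.582 on the E13.5 arrays and 0.688 and 0.347 on the E14.5 arrays. Lhx1, the brightest of the 6, weighed most in this sum and had -2.70 for E14.5 against E12.5. The mean log2 level of the list was -3.52 and -3.11 on the E12.5 arrays. It was -4.13 and -4.16 on the E13.5 arrays, and -3.78 and -4.31 on the E14.5 arrays. No marker of any of the 9 lists passed for E14.5 against E13.5. At E13.5, 5 germ cell markers were higher and 0 lower than at E12.5, with a median of 0.97. For E14.5 against E13.5 the germ cell median was -0.03 and the fetal Leydig median 0.91. The part of these cell types in the members' changes was not tested.

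For each member with a call, the 3 genes with the most similar course over the 6 arrays were found by the root mean square difference of levels centred on each gene's mean. Notch4 lay within 0.0254 of Dmd, 0.0266 of Fbxo28 and 0.0296 of Crmp1. Hey1 lay within 0.0236 of Txnrd1, 0.0529 of Cradd and 0.0571 of Foxc1. All of these distances, and those that follow, were picked as the smallest over all genes kept, so that they are small follows from the choice. They are below the SD between duplicates, which is another measure taken over all genes. Notch3 was nearest to Ptpn20, Otud5 and Zfp786 (0.0472 to 0.0487), Jag1 to Snx32, Ppp2r5b and Hip1r (0.0387 to 0.058), and Jag2 to Endou, Pakap and Med25 (0.035 to 0.0485). Heyl was the member whose nearest genes lay farthest away, with Mageh1, Hrg and Inppl1 at 0.0825 to 0.0871. These likenesses rest on 6 arrays, whose stages and slides are shared by all genes.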

How the data were processed

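Per the labels, RNA of RNAlater-frozen gonads was purified with RNeasy and 0.20 µg was amplified to cRNA with Cy3. Per the file headers and the submitters' processing notes, the deposited spot intensity came from Agilent Feature Extraction 9.5, background-subtracted and not scaled between arrays. The authors also deposited a ratio table, 1 linear value for a probe at a stage, whose reference is not stated; for 25596 probes above background on all arrays, its log2 differences between stages equalled the scanner differences plus offsets of 0.11 for E13.5 minus E12.5, -0.12 for E14.5 minus E13.5 and -0.02 for E14.5 minus E12.5.

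Intensities were log2-transformed and each array's 75th percentile was subtracted. Spots of 1 probe were averaged, without control spots and outliers. Of 41174 probes, 21 lacked a value on some array and were dropped; accessions named 23366 probes, and 17787 stayed unnamed. Where a gene had several probes (5449 genes), its brightest probe was used. A gene was kept if, in 1 stage or more, both arrays had it well above background. The comparison of stages used limma 3.58.1 under R 4.3.3 (lmFit, eBayes; 3 residual and 2.97 prior degrees of freedom, two-sided); the script was tested on simulated data. Alternatives were normexp correction, other scalings, filters, probe rules and priors, a replicate block, a 2-fold minimum, 4 arrays only and leaving out each array. The likeness measure and promoter search are given with their results; figures used matplotlib 3.10.9. With 2 arrays a stage, their number limits the precision of every value. Named were all members, 11 fixed pathway genes, and up to 4 largest rises and falls of the pathway list. The 2 brightest genes of the vascular marker lists were also named, and Lhx1, the brightest of the mesonephros list. Eng, Kdr, Flt1, Esam and Cldn5 were chosen after their values were seen. So were Aph1b, Psen2, Ncstn, Psenen and Adam17, and the promoters other than that of Hey2. The members, lists and tests, and the Notch genes set beside the vascular lists, were chosen with earlier results of these data known.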

Additional observations from a re-analysis of the deposited data

How the results depend on the processing

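No result turned its direction past the threshold. In the totals that follow, those with every probe fitted (7853, 11471 and 1) are numbers of probes, not of genes. A gene can have several probes and some probes are unnamed, so these 3 totals cannot be set against the gene counts beside them. Genes called for E13.5 against E12.5 numbered 4304, against 2859 with no background filter, 7853 with every probe fitted, 1156 with a 2-fold minimum and 1156 to 3849 when 1 array was left out. For E14.5 against E12.5 the 6276 became 11471 with every probe, 1912 with a 2-fold minimum and 3803 to 5407 without 1 array. For E14.5 against E13.5 the 7 became 397 with normexp, 332 with a trended robust prior, 95 with median scaling, 1 with every probe, 0 with no filter, with all 6 arrays above background, with the mean of probes or with 4 arrays only, and 0 to 104 without 1 array. Of the members, the 6 called for E13.5 against E12.5 became 2 (Jag1 and Heyl) with a 2-fold minimum and 2 to 6 without 1 array, the 2 arising without either E13.5 array; the 6 for E14.5 against E12.5 became 3 and 5 to 6, and 0 of 10 passed for E14.5 against E13.5 in all 17 alternatives. Of the other pathway genes, the 16 for E13.5 against E12.5 became 5 with a 2-fold minimum and 6 to 14 without 1 array, the 24 for E14.5 against E12.5 became 10 and 16 to 23, and the 0 for E14.5 against E13.5 became 1 (Dtx1) with normexp and 1 with the trended robust prior. A fold minimum can only remove calls, and it removes each one under 2-fold, which the counts of alternatives given for single genes leave out. The other causes were not tested.

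Median scaling centred all genes at -0.12 for E14.5 against E12.5 and -0.11 for E14.5 against E13.5, in place of 0.03 and -0.01, so changes under it are read against those shifts. Array numbers showed no pairing of E12.5 with a later stage, where duplicate differences correlated at -0.04 (E13.5) and -0.06 (E14.5). For E13.5 with E14.5, which share a slide, the correlation was 0.23, and its source was not tested. With the number as a replicate block, 3766, 1 and 5816 genes were called (E13.5 over E12.5, then E14.5 over E13.5, then E14.5 over E12.5) and 6, 0 and 7 members, the seventh being Notch1 (0.42, adjusted p = 0.0431). Slide as a random block could not be fitted, because no slide holds both E12.5 and a later stage. Of the members' probes, those of Notch2 and the second of Jag1 had the largest SE, 0.43 and 0.29 in the fit of every probe.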
